A study of Mus musculus with 8 samples.

Results

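The cadherin superfamily genes were chosen by symbol: every protein-coding gene of the count table whose symbol begins with Cdh and a digit, Cdhr or Pcdh, or is *Celsr1* to *Celsr3*, *Fat1* to *Fat4*, *Dchs1* or *Dchs2*. This rule took 105 genes of the 28432 in the table, of which 17702 are protein coding. The rule itself used no measured value, but the family was chosen with earlier results of these data known. 57 of the 105 are clustered protocadherins (14 *Pcdha*, 22 *Pcdhb* and 21 *Pcdhg*), which lie side by side on chromosome 18 between 36930184 and 37841873 (GRCm38), and the other 48 are classical and other cadherins, the giant Celsr, Fat and Dchs cadherins and the non-clustered protocadherins. RNA-seq compared retinas of 4 control embryos (*Lhx2* flox/+; *Hes1* CreERT2/+) with those of 4 CKO embryos (*Lhx2* flox/-; *Hes1* CreERT2/+) at E15.5, with both retinas of 1 embryo as 1 sample. In every group the dams had received tamoxifen (0.15 to 0.2 mg per g of body weight, by gavage) at E11.5, and every embryo carried 1 *Hes1* allele replaced by the Cre. Because *Hes1* is active in retinal progenitor cells (RPCs), deletion begins in RPCs and is inherited by the neurons they make. The comparison asks which adhesion genes differ in level after *Lhx2* inactivation.

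Cadherins are calcium-dependent adhesion proteins with repeated extracellular cadherin domains. Classical cadherins bind their like on the next cell and are tied to actin through beta-catenin, alpha-catenin and p120-catenin, and in the retina they hold the neuroepithelium together at its apical junctions. Clustered protocadherins, made from alternative promoters in 3 neighboring gene arrays, give each neuron a surface identity used for self-avoidance, whereas Celsr, Fat and Dchs cadherins carry planar polarity signals and the non-clustered protocadherins act in axon growth and cell sorting.

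The samples held 13143587 to 15063867 counted reads in controls and 13955259 to 19099937 in CKO. For *Lhx2*, controls 1 to 4 held 3478, 3081, 3631 and 3138 normalized counts, while the CKO retinas held 2557, 2765, 2853 and 2868, a log2FC of -0.27 (SE 0.0597, adjusted p = 0.00502). This count covers the whole gene, exons outside the deleted part included, so it does not check the deletion. Of 13 RPC markers 9 fell and 1 rose (4.97% and 3.64% of all genes). Their summed normalized counts were 98417 to 109486 in controls and 55532 to 64408 in CKO. Of 13 retinal ganglion cell (RGC) markers 7 rose and 0 fell (3.64% and 4.97% of all genes), with sums of 70645 to 81367 and 98521 to 107153. The log2FC was below 0 in 2 of the 13 RGC markers. At an adjusted p below 0.05, 11 were higher and 1 lower (15.9% and 17.4% of all genes). These shifts moved with genotype, as did the results below, and their part in them was not tested. In whole retinas, fewer cells of a type and less RNA per cell cannot be told apart. By *Xist* and Y-linked counts, 2 controls (1 and 4) and 1 CKO embryo (1) were female, and control replicate 3 and CKO replicate 1 lay farthest apart on the second principal component.

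89 of the 105 members reached 20 normalized counts in 3 or more samples and were tested, and the 16 that did not held 1 to 95 reads over all 8 samples. 8 of the 89 (8.99%) passed an adjusted p below 0.001, against 8.61% of all 13891 genes tested, so the share of called genes was near that of the whole table. 6 members rose in CKO (background 3.64%): *Celsr3*, *Pcdh10*, *Pcdh18*, *Pcdh19*, *Pcdhb4* and *Pcdhga2*. 2 fell (background 4.97%): *Cdh20* and *Pcdh17*. At an adjusted p below 0.05, 37 passed (background 33.3%), 30 higher (background 15.9%) and 7 lower (background 17.4%). DESeq2 called 15 (background 16.3%), 10 higher (background 7.57%) and 5 lower (background 8.78%). edgeR without the low-count filter called 17 of 105 (background 7.23%), 12 higher (background 3.39%) and 5 lower (background 3.84%). That last background is over all 28432 genes, of which 13891 passed the filter, whereas 89 of the 105 members did. Members and background therefore differ in level there, and the excess cannot be read as particular to the members. The log2FC was above 0 in 74 of the 89 members, with a median of 0.31, and in 7052 of the 13891 genes, with a median of 0.0053. All 4 CKO samples lay above all 4 controls in 28 members, a pattern seen in 15.9% of all genes, and below them in 7 members, a pattern seen in 17.9% (33.8% in either direction).

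**Figure D1:**
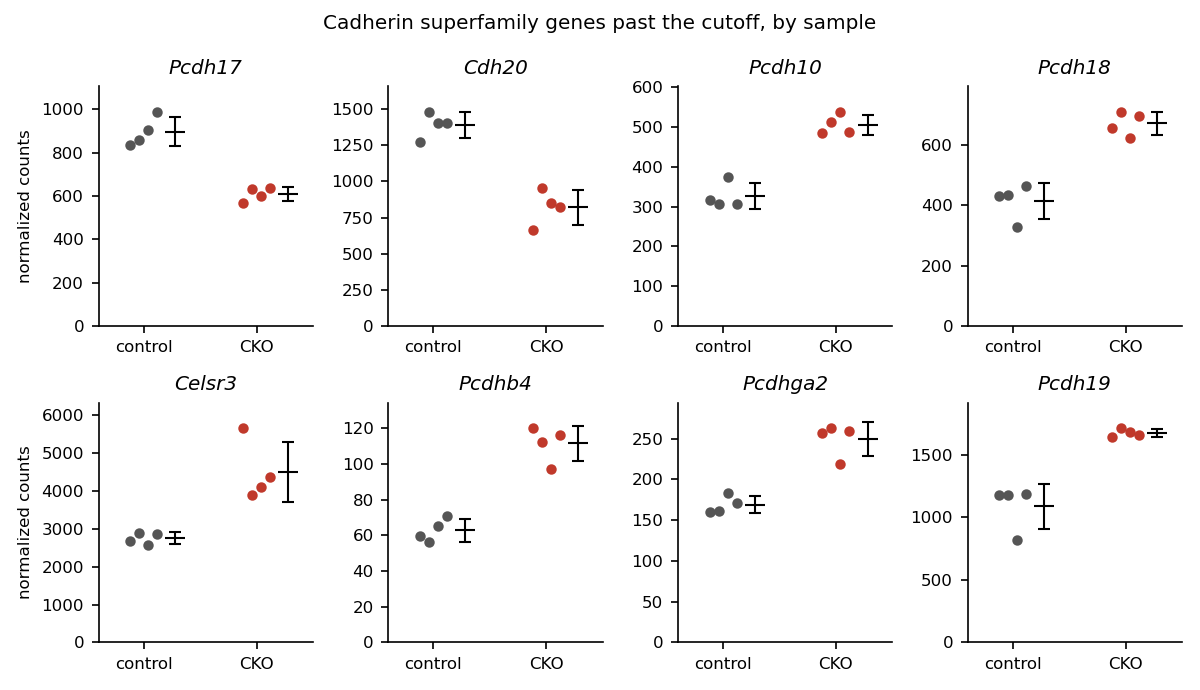
Normalized counts (y axis, starting at 0) of the 8 members past the cutoff in each control and CKO sample (points, x axis), with mean and SD of 4 samples beside them. The groups do not overlap in any of the 8 panels, with *Cdh20* and *Pcdh17* lower and the other 6 higher in CKO.

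RefSeq promoter windows (GRCm38.p6, 250 bases before to 50 after a start) are shown for the members that fell and for the pair of neighbors on chromosome 3 that rose, as examples from either direction. Capitals mark TAAT or its reverse complement ATTA, the core letters read by homeodomain proteins, the class to which *Lhx2* belongs. The *Cdh20* window is chr1:104768270-104768569 on the plus strand, that of *Pcdh17* chr14:84443313-84443612 plus, that of *Pcdh10* chr3:45378148-45378447 plus and that of *Pcdh18* chr3:49757267-49757566 minus.
Cdh20: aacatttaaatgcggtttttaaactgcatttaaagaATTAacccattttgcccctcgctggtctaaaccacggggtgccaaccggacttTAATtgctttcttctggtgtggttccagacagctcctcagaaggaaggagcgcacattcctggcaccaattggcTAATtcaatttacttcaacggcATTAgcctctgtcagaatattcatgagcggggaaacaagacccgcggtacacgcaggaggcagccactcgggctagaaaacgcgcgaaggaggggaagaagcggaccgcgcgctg
Pcdh17: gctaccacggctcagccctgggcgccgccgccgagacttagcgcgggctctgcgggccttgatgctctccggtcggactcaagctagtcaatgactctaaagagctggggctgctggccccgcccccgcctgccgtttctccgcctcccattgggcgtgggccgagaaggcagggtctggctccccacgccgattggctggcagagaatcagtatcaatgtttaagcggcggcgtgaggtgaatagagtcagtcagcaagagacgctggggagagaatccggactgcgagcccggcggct
Pcdh10: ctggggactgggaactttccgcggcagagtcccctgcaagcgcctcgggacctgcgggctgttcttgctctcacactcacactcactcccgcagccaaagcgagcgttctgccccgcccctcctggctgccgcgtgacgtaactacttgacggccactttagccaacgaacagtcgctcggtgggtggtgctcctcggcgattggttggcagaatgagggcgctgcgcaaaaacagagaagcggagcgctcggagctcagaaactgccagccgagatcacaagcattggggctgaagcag
Pcdh18: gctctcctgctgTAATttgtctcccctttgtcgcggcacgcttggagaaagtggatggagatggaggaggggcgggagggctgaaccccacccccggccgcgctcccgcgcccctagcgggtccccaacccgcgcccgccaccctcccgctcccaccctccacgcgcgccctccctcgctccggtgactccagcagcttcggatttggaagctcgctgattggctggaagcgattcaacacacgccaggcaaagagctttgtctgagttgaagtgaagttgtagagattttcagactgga

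*Cdh20* held 4 such cores, *Pcdh18* held 1, and *Pcdh17*, *Pcdh10*, *Celsr3* and *Pcdh19* held 0. The longer TAATTA, in which TAAT and ATTA overlap, occurred in 0 of these 6 windows. Of all 32851 windows, 58% held at least 1 core, 11% at least 4 and 5.29% TAATTA, and of the 36 windows found for 33 members, 20 held at least 1 core and 1 held TAATTA. The called clustered genes *Pcdhb4* and *Pcdhga2* had no window in this set. In the windows of the 6 other called members, the share of G and C ran from 50.7% in *Cdh20* to 67.7% in *Pcdh19*. The median over all windows was 52.7%, and *Cdh20* was the one below it. A match is a description of letters and not a measured binding site.

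Levels between genes are compared per length, and *Cdh2* held the highest of the superfamily. *Cdh2*, N-cadherin of the neuroepithelial junctions, had 983 ± 32.3 normalized counts per kb of exon in controls and 805 ± 36.3 in CKO (SD, n = 4 each). *Cdh11*, a type II cadherin of mesenchyme and neural cells, followed with 411 ± 51.9 in controls, then *Celsr2* with 371 ± 12.5, *Cdh4* (R-cadherin) with 349.6 ± 17.4 and *Cdh20* with 347 ± 22.0 per kb. *Cdh2* stood above all others in every control, whereas the ranges of *Cdh11*, *Celsr2*, *Cdh4* and *Cdh20* overlapped from each to the next.

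Among type II cadherins, *Cdh20* fell. The controls, in replicate order, held 1271, 1483, 1408 and 1406 normalized counts, compared with 663, 955, 849 and 823 in CKO. Every CKO sample lay below every control, the log2FC was -0.76 (SE 0.0921, 95% interval -0.96 to -0.56, adjusted p = 0.000109), and the level was 0.591 times that of controls. *Cdh20* has 12 exons on chromosome 1 between 104768529 and 104995481, none of which overlaps an annotated exon on the opposite strand. The call held in all 17 alternatives, including without any single sample.

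The other 11 type II cadherins tested did not pass the cutoff. *Cdh22* had 342, 354, 443 and 340.2 normalized counts in controls and 202, 261, 261 and 275 in CKO, without overlap (log2FC -0.57, SE 0.114, adjusted p = 0.00285), and DESeq2 called it (adjusted p = 8.19e-05). *Cdh11* also lay lower in all CKO samples, at 2444 to 3039 against 3106 to 4236 normalized counts (log2FC -0.35, adjusted p = 0.0132). Summed markers of the periocular mesenchyme, another tissue that makes *Cdh11*, were 108 to 189 in controls and 48.5 to 142 in CKO, with 2 of 10 markers above the filter, and their part was not tested. In the other direction, CKO samples lay above all controls for *Cdh8*, *Cdh12* and *Cdh18*, cadherins of neuron subsets that were chosen after their values were seen. Their log2FC values were 0.53 (adjusted p = 0.0107), 0.64 (adjusted p = 0.0076) and 0.45 (adjusted p = 0.0284). Of the 12 type II cadherins tested 3 lay above and 3 below without overlap (15.9% and 17.9% of all genes), and their summed counts were 5636 to 6877 in controls and 4454 to 5226 in CKO, a sum carried mainly by *Cdh11* and *Cdh20*.

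Groups also did not overlap for *Cdh2*, which had 7782, 7878, 7749 and 8313 normalized counts in controls and 6102, 6667, 6452 and 6762 in CKO. Its log2FC of -0.29 (SE 0.0515, adjusted p = 0.00148) missed the cutoff, and DESeq2 called it (adjusted p = 3.86e-07). *Cdh4* had 2351 to 2628 normalized counts in controls and 1992 to 2370.1 in CKO, with overlap (log2FC -0.18, adjusted p = 0.0401). The epithelial type I cadherins were near the low-count filter. *Cdh3* (P-cadherin) had 30.2 to 51.4 and 25.6 to 29.5 normalized counts (log2FC -0.50, adjusted p = 0.0857), and *Cdh1* (E-cadherin) 11.1 to 16.7 and 14.3 to 38.4 (log2FC 0.92, adjusted p = 0.0428). Markers of the retinal pigment epithelium, where *Cdh3* is also made, summed to 284 to 475 in controls, 163 to 184 in CKO replicates 1 to 3 and 521 in CKO replicate 4, of which *Ttr* alone made up 379.9. Of the 5 tested 4 lay lower in all CKO samples (17.9% of all genes). Lens markers summed to 54.7 to 116 and 78.4 to 147. The part of either tissue was not tested.

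*Cdh5* (VE-cadherin) and *Pcdh12*, both of endothelium and named after their values were seen, spread widely within each genotype. *Cdh5* had 109.8, 50.0, 37.7 and 50.6 normalized counts in controls and 27.0, 47.4, 85.3 and 111 in CKO (log2FC 0.09, SE 0.42), and *Pcdh12* had 18.1, 5.21, 4.57 and 24.3 against 8.74, 12.1, 27.3 and 33.1 (log2FC 0.56, SE 0.55). Within each genotype the spread exceeded the difference between genotypes for both genes. Endothelial and pericyte markers summed to 4831 to 5154 in controls and 2948 to 4075 in CKO, of which *Kdr*, a gene that RPCs express as well, made up 3943 to 4272 and 2479 to 3145. *Cldn5* (153 to 202 and 39.6 to 84.3, adjusted p = 0.000194) and *Pdgfrb* (276 to 291 and 179 to 254, adjusted p = 0.00942) also lay lower without overlap. Of the 9 tested markers 3 lay below all controls (17.9% of all genes) and 0 above (15.9%), and 5 had a log2FC above 0. The part of these cells was not tested.

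**Figure D2:**
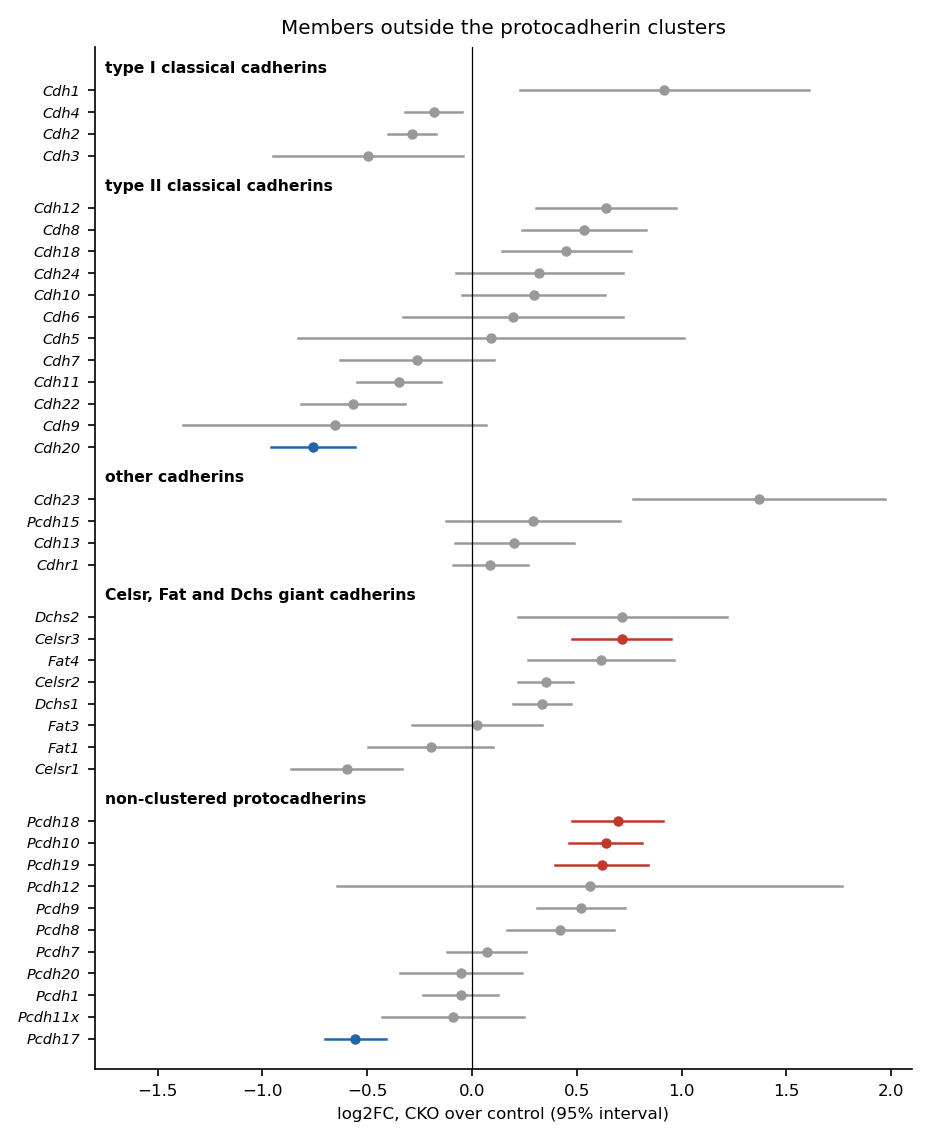
Log2FC of CKO over control (x axis, points, with 95% interval) of the 39 tested members outside the protocadherin clusters, in 5 subgroups. Red marks members that rose, blue those that fell and gray those that did not pass: the intervals of *Celsr3*, *Pcdh10*, *Pcdh18* and *Pcdh19* lie above 0 and those of *Cdh20* and *Pcdh17* below it.

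Of the 4 other cadherins tested, 0 passed in edgeR, DESeq2 or limma voom, and 1, *Cdh23*, had an unadjusted edgeR p below 0.05. At least 5913 of all 13891 genes tested had such an unadjusted p. *Cdh23* and *Pcdh15*, which form the tip links of hair cells, differed in level and in how far the groups stood apart. *Cdh23* had 16.1, 11.5, 11.4 and 9.11 normalized counts in controls and 42.9, 26.7, 28.4 and 25.6 in CKO. All 4 CKO samples lay above the controls, and the log2FC of 1.37 (SE 0.275, adjusted p = 0.00286), the largest among the 89 members, rested on few reads, with 0.710 normalized counts per kb in controls and 1.82 in CKO. *Pcdh15* overlapped (186 to 333 and 247 to 407 normalized counts, log2FC 0.29, adjusted p = 0.261). *Cdhr1*, the photoreceptor cadherin, had 784 to 1021 and 899 to 948 (log2FC 0.09, 95% interval -0.09 to 0.27), and *Cdh13*, the membrane-anchored T-cadherin, 127 to 184 and 156 to 208 (log2FC 0.20, adjusted p = 0.259).

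Of the 3 Celsr cadherins, seven-pass receptors of the planar polarity pathway, *Celsr3* rose. It lies on chromosome 9 between 108826320 and 108852969, with 35 exons. Normalized counts of *Celsr3*, which acts in axon tract formation, were 2681, 2893, 2565 and 2872 in controls and 5655, 3902, 4091 and 4360.3 in CKO. CKO replicate 1 was the highest, yet every CKO sample exceeded every control, with a log2FC of 0.71 (SE 0.108, adjusted p = 0.000474) and 0.58 (adjusted p = 7.15e-05) without CKO replicate 1. Leaving out control replicate 1, 2, 3 or 4 or CKO replicate 4 put its adjusted p at 0.00147 to 0.00279, above the cutoff. *Celsr2* had 4303, 4349, 4055 and 4361 normalized counts in controls and 5919.9, 5174, 5134 and 5505 in CKO, without overlap, and just missed the cutoff (log2FC 0.35, SE 0.0596, adjusted p = 0.00104). *Celsr1* ran the other way, with 438, 380.1, 308 and 353 in controls and 238, 215, 289 and 237 in CKO, also without overlap (log2FC -0.60, SE 0.121, adjusted p = 0.003). DESeq2 called both (adjusted p = 1.11e-07 and 3.6e-05). Per kb of exon, controls held 371 ± 12.5 for *Celsr2*, 229 ± 13.1 for *Celsr3* and 33.6 ± 4.92 for *Celsr1*, and CKO retinas 472 ± 31.7, 375 ± 66.0 and 22.2 ± 2.83 (SD, n = 4).

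Fat and Dchs cadherins bind each other across cell borders, with *Dchs1* as ligand and *Fat4* as receptor. *Dchs1* had 2223, 2376, 2201 and 2462 normalized counts in controls and 3074, 2686, 2802 and 3094 in CKO (log2FC 0.33, SE 0.0636, adjusted p = 0.00211). *Fat4* had 3177, 3296, 1750.2 and 3229 in controls and 4345, 4229, 4355 and 4625 in CKO (log2FC 0.62, SE 0.159, adjusted p = 0.0116). In both, the groups did not overlap, and control replicate 3 was far below the other controls for *Fat4*. Ciliary margin markers summed to 1723 in control replicate 3, 3659 to 5393 in the other controls and 3205 to 4424 in CKO. The part of this tissue was not tested. The low-level *Dchs2*, named after its values were seen, had 12.6 to 20.1 and 23.5 to 33.9 (log2FC 0.72, adjusted p = 0.0312). *Dchs2* reached the filter, 20 normalized counts in 3 samples, only through its CKO samples. *Fat1*, needed for normal eye formation, overlapped at 3232 to 5332 and 3658 to 4476 normalized counts (log2FC -0.20, 95% interval -0.49 to 0.10). *Fat3*, also named after its values were seen, overlapped at 1646 to 2826 and 2268 to 2452 (log2FC 0.02, adjusted p = 0.912). *Fat1*, *Fat4*, *Dchs1* and *Dchs2* each have a gene on the opposite strand, whose reads cannot be told apart in these libraries, which do not keep strand.

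Of the 11 non-clustered protocadherins tested 3 rose and 1 fell (3.64% and 4.97% of all genes). *Pcdh10*, a delta-2 protocadherin that recruits actin regulators in growing axons, had 315, 307, 374 and 306 normalized counts in controls and 485, 513, 538 and 488 in CKO. The lowest CKO sample was well above the highest control, and the log2FC was 0.64 (SE 0.0792, adjusted p = 0.000124). *Pcdh18*, its neighbor on chromosome 3 (*Pcdh10* at 45378398 to 45435623 and *Pcdh18* at 49743296 to 49757325), had 429.9, 434, 329 and 466 in controls and 657, 711, 624 and 696 in CKO. These groups too did not overlap, with a log2FC of 0.70 (SE 0.0986, adjusted p = 0.000309). Without control replicate 1 or 2 or CKO replicate 2 or 4 the adjusted p of *Pcdh18* was 0.00101 to 0.00166, above the cutoff, while *Pcdh10* was called in all 17 alternatives.

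*Pcdh19*, an X-linked delta-2 protocadherin tied to epilepsy that forms complexes with N-cadherin, had 1176, 1178, 819 and 1186 normalized counts in controls and 1640.5, 1714, 1684 and 1659 in CKO. The CKO samples lay close together and above all controls, of which replicate 3 was low, and the log2FC was 0.62 (SE 0.101, adjusted p = 0.000825). It was 0.51 (adjusted p = 9.58e-06) without control replicate 3, and without each other sample in turn the adjusted p was 0.00167 to 0.00317. With embryo sex as a covariate it was 0.000711. *Pcdh19* lies on the X chromosome between 133582860 and 133688987, with *Gm26851* on its opposite strand, and *1700027H10Rik* lies opposite *Pcdh10*.

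*Pcdh17* was the non-clustered protocadherin that fell. It belongs to the same delta-2 class as *Pcdh10*, *Pcdh18* and *Pcdh19* and acts where axons extend along one another. Its 4 exons lie on chromosome 14 between 84443563 and 84539002. Normalized counts were 837, 857, 905 and 988 in controls and 569, 631, 602 and 637 in CKO. No CKO sample reached the lowest control, the log2FC was -0.56 (SE 0.0654, adjusted p = 8.68e-05), and all 17 alternatives kept the call. Per kb of exon, controls held 105 ± 17.4 for *Pcdh19*, 77.3 ± 11.1 for *Pcdh18*, 69.0 ± 5.19 for *Pcdh17* and 20.7 ± 2.08 for *Pcdh10*, and CKO retinas 161 ± 3.04, 125 ± 7.33, 46.9 ± 2.40 and 32.2 ± 1.59. In controls the ranges of *Pcdh17* and *Pcdh18* overlapped, and in CKO they did not.

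*Pcdh9*, of the delta-1 class, had 533, 549, 460.1 and 575 normalized counts in controls and 867, 768, 665 and 729 in CKO, without overlap (log2FC 0.52, SE 0.0952, adjusted p = 0.00163), and passed in DESeq2 (adjusted p = 3.09e-06). *Pcdh7*, of the same class, overlapped at 389 to 505 and 452 to 517 (log2FC 0.07, 95% interval -0.12 to 0.26). The other 5 of the 11 genes did not pass, with log2FC values from -0.09 to 0.56.

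**Figure D3:**
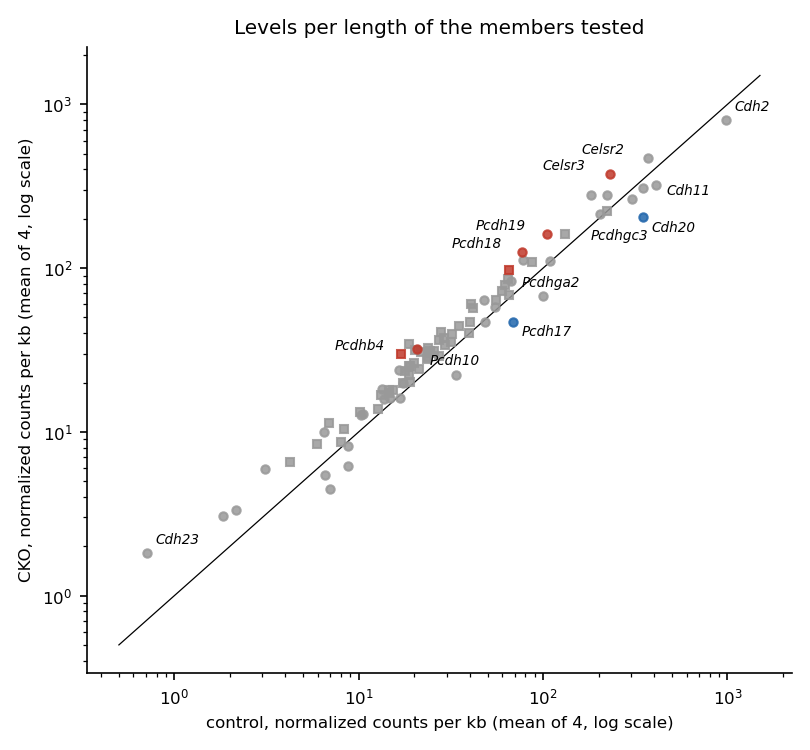
Mean normalized counts per kb of exon not shared with another gene (log scales) in controls (x axis) and CKO (y axis) for the tested members, with squares for clustered protocadherins, circles for the others, red for members that rose, blue for those that fell and a line of equal levels. *Cdh2* lies at the top right, *Cdh23* at the lower left, and most squares lie a little above the line.

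Of the clustered protocadherins 50 of 57 passed the filter and 2 passed the cutoff (4%, beside 8.61% of all genes), both of which rose. *Pcdhb4*, a single-exon gene between 37307455 and 37311172 on chromosome 18, had 59.4, 56.2, 65.1 and 70.9 normalized counts in controls and 120.0, 112, 97.4 and 116 in CKO. The groups did not overlap, and the log2FC of 0.83 (SE 0.126, adjusted p = 0.000488) equals a ratio of 1.78. *Pcdhga2*, between 37668953 and 37841870, had 160.1, 161, 183 and 171 in controls and 257, 263, 219 and 259 in CKO, again without overlap (log2FC 0.57, SE 0.0895, adjusted p = 0.000637). Both calls were lost without control replicate 1, 2 or 4 or CKO replicate 1, 2 or 4, at adjusted p values of 0.00128 to 0.00261 for *Pcdhb4* and 0.00185 to 0.00342 for *Pcdhga2*, and *Pcdhga2* also with sex as a covariate (0.00138).

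The small differences of the clustered genes mostly pointed 1 way. The log2FC was above 0 in 49 of the 50 tested, with a median of 0.33, and over all 57 members the CKO mean was the higher in 54. The exception among tested genes was *Pcdhgc3*, a C-type isoform and the most abundant clustered member per kb of its own exon (223 ± 17.3 in controls, 223 ± 16.1 in CKO), with 362 to 434 and 365 to 432 normalized counts and a log2FC of -0.0022 (95% interval -0.18 to 0.17). CKO samples lay above all controls in 15 of the 50 genes (15.9% of all genes) and below them in 0 (17.9% of all genes). Because these genes share a locus, sequence and libraries, they are not independent measurements.

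The 3 arrays are described in turn. *Pcdha* genes had a median log2FC of 0.42 over 10 tested, with 3 lying above all controls (15.9% of all genes). edgeR called 0 of the 10, DESeq2 1 (*Pcdha9*) and limma voom 0, and 3 had an unadjusted p below 0.05 (at least 5913 of all 13891 genes). Among the 3, *Pcdha9* had 34.2, 50.0, 49.1 and 53.7 normalized counts in controls and 89.0, 89.6, 66.7 and 93.9 in CKO (log2FC 0.86, SE 0.175, adjusted p = 0.003), and the C-type *Pcdhac2*, the highest *Pcdha* gene per kb, had 98.2 to 139.5 and 165 to 206 (log2FC 0.57, adjusted p = 0.00559). *Pcdha7* had 34.3 to 55.7 and 57.6 to 73.1 (adjusted p = 0.0455). The groups overlapped for *Pcdha2* and *Pcdha3*, also among the 5 highest per kb of this array. *Pcdha2* had 34.2 to 63.5 and 49.1 to 73.9 (adjusted p = 0.158), and *Pcdha3* 40.6 to 61.8 and 47.0 to 81.8 (adjusted p = 0.148). The alpha genes summed to 432, 508, 405 and 521 normalized counts in controls and 708, 706, 647 and 603 in CKO, so every CKO sample exceeded every control.

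*Pcdhg* genes had a median log2FC of 0.33 over 20 tested, with 9 lying above all controls (15.9% of all genes), among them *Pcdhgb6* (217 to 234 and 255 to 302 normalized counts, adjusted p = 0.00744) and *Pcdhga11* (152 to 184 and 191 to 218, adjusted p = 0.0388). *Pcdhgb7* overlapped at 109 to 134 and 105 to 134 (log2FC 0.07). The gamma sums were 2459.8, 2465, 2324 and 2546 in controls and 3085, 2990.3, 2960.2 and 3026 in CKO, again without overlap.

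*Pcdhb* genes had a median log2FC of 0.24 over 20 tested, and 3 lay above all controls, a share near the 15.9% of all genes: *Pcdhb4*, *Pcdhb17* (256 to 294 and 306 to 381 normalized counts, adjusted p = 0.031) and *Pcdhb5*, named after its values were seen (72.9 to 92.7 and 104 to 136, adjusted p = 0.0157). The groups overlapped for *Pcdhb7*, *Pcdhb16*, *Pcdhb20* and *Pcdhb22*, which with *Pcdhb17* were the 5 highest per kb of this array. Their log2FC values were 0.37, 0.17, 0.23 and 0.03 (adjusted p = 0.0668, 0.539, 0.169 and 0.911). The *Pcdhb* sums were 2082, 2170.3, 1741 and 2051 in controls and 2856, 2323, 2199.9 and 2185 in CKO. CKO replicate 1 was the highest and control replicate 3 the lowest, and CKO replicates 3 and 4 were only a little above the highest control. With both of those samples left out, 13 of the 20 *Pcdhb* genes had a log2FC above 0 and the median was 0.087, against 10 of 10 and 0.32 for *Pcdha* and 19 of 20 and 0.28 for *Pcdhg*.

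**Figure D4:**
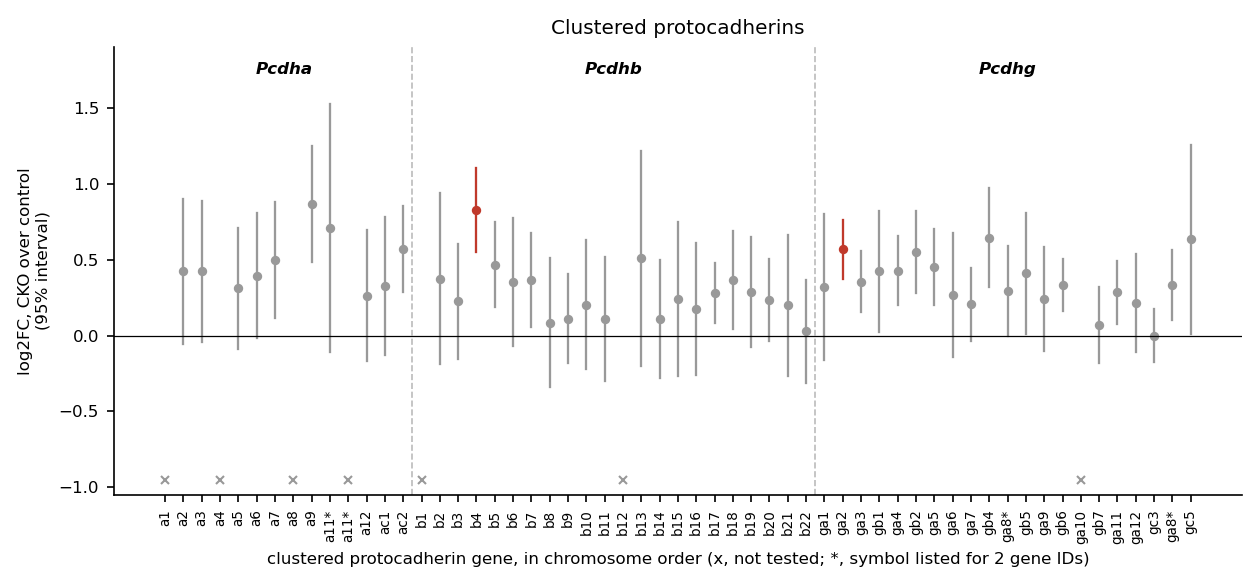
Log2FC of CKO over control (y axis, points, with 95% interval) of the clustered protocadherins in chromosome order (x axis), red for the members that rose, with crosses for the 7 not tested and asterisks for the symbols that the table lists for 2 gene IDs. Of the 50 points 49 lie above 0, and *Pcdhb4* and *Pcdhga2* are the red ones.

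**Figure D5:**
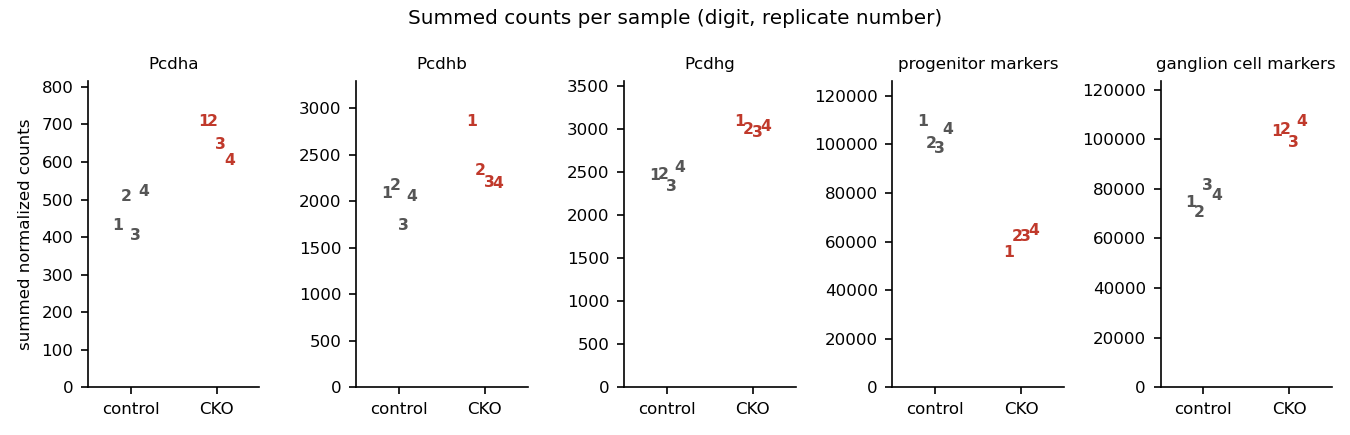
Summed normalized counts (y axes, starting at 0) of the *Pcdha*, *Pcdhb* and *Pcdhg* genes and of 13 RPC and 13 RGC markers in each control and CKO sample (x axis), each sample drawn as its replicate number. CKO samples lie above all controls in the *Pcdha*, *Pcdhb*, *Pcdhg* and RGC panels and below them in the RPC panel.

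*Pcdha* and *Pcdhg* messages end in constant exons shared by their array, and 45.1% of the exonic bases of *Pcdhga2* are shared with other genes. *Pcdha4* has the same constant exons and only 21 reads over 8 samples, so reads in the shared exons were not counted for every gene of the array. Reads of 50 bases may not separate near-identical variable exons, and the levels of single clustered genes are uncertain to that extent. The symbols *Pcdha11* and *Pcdhga8* each stand for 2 gene IDs in the table, and ENSMUSG00000023036, listed as *Pcdhga8*, is Pcdhgc4 in GENCODE M21.

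Catenins, which tie classical cadherins to actin, changed within the alpha class. *Ctnna2*, the neuronal alpha-catenin, rose from 2297, 2434, 2353 and 2522 normalized counts to 3274, 3496, 3260.0 and 3217 (log2FC 0.47, SE 0.0475, adjusted p = 3.36e-05). *Ctnna1*, the epithelial alpha-catenin, fell from 4568, 4129, 3981 and 4244 to 3085, 3375, 3355 and 3416 (log2FC -0.35, adjusted p = 0.000485), though its call was lost without any single sample other than control replicate 3 (adjusted p up to 0.00357 over the alternatives). *Pkp4*, a p120-related armadillo protein, also fell (log2FC -0.60, adjusted p = 8.85e-05), from 2143 to 2395 down to 1314 to 1688. The groups overlapped for *Ctnnb1* (beta-catenin, log2FC -0.04, 95% interval -0.16 to 0.09) and *Ctnnd1* (p120-catenin, log2FC 0.01, 95% interval -0.13 to 0.15), and *Ctnnd2*, the neural delta-catenin, did not pass (log2FC 0.16, adjusted p = 0.0301). Of the 14 catenins and other junction partners tested 1 rose and 2 fell (3.64% and 4.97% of all genes).

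Of 13 planar polarity partners of the Celsr, Fat and Dchs cadherins 4 rose (3.64% of all genes). *Ankrd6* (Diversin) had 259 to 305 normalized counts in controls and 478 to 570.4 in CKO (log2FC 0.92, adjusted p = 1.35e-05), and *Dvl3*, a Dishevelled, 1306 to 1385 and 1772 to 1837 (log2FC 0.41, adjusted p = 4.92e-05). The groups were widely separated in both. The core membrane protein *Vangl2* (log2FC 0.30, adjusted p = 0.00033) and its cytoplasmic partner *Prickle2* (log2FC 0.51, adjusted p = 0.000881) also rose. *Prickle2* lost its call without any single sample other than control replicate 4 (adjusted p up to 0.0043 over the alternatives). *Vangl2* lost it without control replicate 1, 2 or 4 or CKO replicate 2, 3 or 4 (adjusted p up to 0.0032).

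Of 16 genes for protocadherin promoter choice and signaling, 1 rose and 1 fell, shares near those of all genes (3.64% and 4.97%). The log2FC was below 0 in 12 of the 16, and 6 lay below and 3 above all controls (17.9% and 15.9% of all genes). At an adjusted p below 0.05, 7 were lower and 2 higher (17.4% and 15.9% of all genes). *Cyfip2*, a subunit of the WAVE actin regulator to which many protocadherins bind, had 3441 to 3982 normalized counts in controls and 5109 to 5694 in CKO (log2FC 0.54, adjusted p = 3.42e-05). The cohesin subunit *Smc1a*, needed with *Ctcf* for looping at protocadherin promoters, had 5176 to 5634 and 3893 to 4420.4 (log2FC -0.34, adjusted p = 0.000498), and its call was lost without any single sample other than control replicate 3 (adjusted p up to 0.00316 over the alternatives). Of the 7 processing genes 0 passed in edgeR, DESeq2 or limma voom, and 1 had an unadjusted p below 0.05. Of the 4 tested superfamily genes outside the symbol rule 0 passed in edgeR and limma voom and 2 in DESeq2, and 3 had an unadjusted p below 0.05. For both lists, at least 5913 of all 13891 genes tested had an unadjusted p that low. Over all 5 lists 9 of 54 tested genes passed (16.7%, beside 8.61% of all genes), 6 up and 3 down, with a median log2FC of -0.01. The lists were chosen with earlier results of these data known, which limits what this share can show.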

How the data were processed

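RNA came from retinas of 8 mouse embryos, 4 control and 4 CKO. The authors made poly(A) libraries without strand information, read 50 cycles from 1 end, used TopHat 2 for alignment to mm10 and HTSeq for counting (the submitters' notes also name Cufflinks). The values used are these deposited raw counts, not normalized and not pooled. Not given in the sources used here are the tool versions, strand setting, annotation release and which of the 3 litters and 2 days each embryo came from. Groups came from the labels, no sample was left out, and nothing in the labels gives batches. p-values measure the spread between embryos.

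Genes with at least 20 normalized counts (median-of-ratios size factors) in at least 3 samples were kept. This rule, the one the study states, left 13891 of 28432 genes here, and the study gives another number for its own table. The test was the edgeR 4.0.16 quasi-likelihood test in R 4.3.3 with TMM scaling and a term for genotype alone, at a Benjamini-Hochberg adjusted p below 0.001 over all genes tested. The study's own test, DESeq2 (1.42.0 here), was an alternative, with limma voom (limma 3.58.1), other scalings and filters, an adjusted p below 0.05, the replicate number as a block, embryo sex and the omission of each sample. Standard errors divide the log2FC by the root of the F statistic. Levels per kb divide normalized counts by exonic bases not shared with another gene in GENCODE M21. Dixon's test marked samples that stood apart. The model was tested on simulated data. The members, the partner and marker lists (from general knowledge) and the tests were chosen with earlier results of these data known. Named members are those past the cutoff, the 5 highest per kb in each subgroup, those that DESeq2 or limma voom called and those with a sample standing apart. Named partners are those past the cutoff (at most 5 a list) and 5 catenins, and any other is said in the text to have been picked with its values known. Of the 10 marker lists, photoreceptor precursors had 1 riser among 6 tested and amacrine and horizontal cells 2 of 8 (3.64% of all genes). Ciliary margin had 1 faller of 8, pigment epithelium 1 of 5, endothelium 2 of 9 and periocular mesenchyme 1 of 2 (4.97% of all genes). Lens (2 tested) and macrophage and blood markers (9 tested) had 0 calls in edgeR, with 1 and 0 in DESeq2 and 0 in limma voom. At an unadjusted p below 0.05 they had 1 and 0 (at least 5913 of all 13891 genes).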

Additional observations from a re-analysis of the deposited data

Results flagged for a closer look

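In 16 of 178 sets of 4 samples (89 members, 2 groups each), the highest or lowest sample stood apart from the other 3 by Dixon's test at 95%. Chance alone marks about 5% of such sets. 7 of the 16 were in controls and 9 in CKO, and no cause was tested.

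Control replicate 3 stood apart for 4 members. It had 1750.2 normalized counts of *Fat4* where the other controls had 3177 to 3296, and 819 of *Pcdh19* where they had 1176 to 1186. It was the high one for *Pcdh10* (374 against 306 to 315) and for *Cdh22* (443 against 340.2 to 354). CKO replicate 1 stood apart for 6 members. It was low for *Cdh11*, with 2444 normalized counts against 3006 to 3039, and high for *Cdh23* (42.9 against 25.6 to 28.4), *Cdh24* (412 against 247 to 252), *Pcdhb16* (250.2 against 152 to 168), *Pcdhb18* (195 against 139.8 to 149) and *Pcdhb21* (136 against 88.6 to 96.5).

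*Pcdh11x*, an X-linked protocadherin, was marked in both groups, at 160.0 normalized counts in control replicate 4 (the others 107 to 111) and 91.8 in CKO replicate 4 (the others 119 to 123). Among gamma protocadherins, *Pcdhga1* had 98.9 in control replicate 2 (57.7 to 61.7 in the others), *Pcdhgb2* 88.1 in control replicate 4 (72.5 to 74.2), *Pcdhga2* 219 in CKO replicate 3 (257 to 263) and *Pcdhgb4* 118 in CKO replicate 4 (110.4 to 112).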

How the results depend on the processing

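The edgeR test gave 8 called members (6 higher, 2 lower) and 9 called partner genes. DESeq2 gave 15 (10 and 5) and 14, no filter 17 (12 and 5) and 15, and an adjusted p below 0.05 37 (30 and 7) and 29, while limma voom, other scalings, filterByExpr and embryo sex gave 8 to 10 members. The main test called 8.61% of all genes, DESeq2 16.3%, the fit without a filter 7.23% and an adjusted p below 0.05 33.3%. The 7.23% is over all 28432 genes, those too low to test included. Shares over all genes are not given here for the other alternatives. Their counts therefore cannot show a change particular to these members or partners. Leaving out 1 sample gave 3 to 9 members, of which 1 to 6 were higher and 2 to 3 lower, and 5 to 12 partners, with 3 members called without control replicate 1 or 2 or CKO replicate 4 and 4 without control replicate 4 or CKO replicate 2. Fits without 1 sample compare 3 with 4. Leaving out control replicate 3 and CKO replicate 1 together, an alternative chosen after seeing the data, gave 14 members (9 higher, 5 lower) and 15 partners, and 42 of 50 clustered genes with a log2FC above 0 instead of 49. With the replicate number as a replicate block, 4 members (2 higher, 2 lower) and 5 partners were called. Same-numbered samples are not known to share more than a number. Correlations of their deviations were 0.142, -0.154, 0.0633 and -0.116 for numbers 1 to 4. These cannot show whether any of them shared a litter or day, which the labels do not give. *Cdh20*, *Pcdh17* and *Pcdh10* were called in all 17 alternatives, *Pcdh18* in 13, *Celsr3* in 11, *Pcdhb4* in 10 and *Pcdh19* and *Pcdhga2* in 9.

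Log2FC values that changed sign were all of genes that did not pass. Over the fits without 1 sample, the lowest and highest were -0.25 and 0.52 for *Cdh5*, -0.038 and 0.33 for *Cdh6*, -0.00031 and 0.13 for *Pcdh7*, -0.14 and 0.075 for *Pcdh11x*, -0.026 and 0.27 for *Pcdhb16*, -0.19 and 0.12 for *Pcdhb22*, -0.053 and 0.042 for *Pcdhgc3*, -0.056 and 0.00034 for *Ctnnb1* and -0.019 and 0.044 for *Ctnnd1*. *Cdh5* was -0.045 by limma voom, *Ctnnd1* -0.016 with library totals and *Pcdhb22* -0.0071 with the replicate block. Without control replicate 3 and CKO replicate 1 together, *Cdh6* was -0.055, *Pcdhb21* -0.14, *Pcdhb16* -0.18, *Pcdhb22* -0.19 and *Pcdh15* -0.0036. The cause of these changes was not tested. Members near the filter, such as *Cdh23* and *Dchs2*, rest on few reads, which limits their precision. Both passed the filter only through their CKO samples, and both count among the 28 members with CKO above all controls.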
